A study of Caenorhabditis elegans with 12 samples.

Results

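The *fbxa* genes of *Caenorhabditis elegans* encode F-box A proteins, and they were followed here in a table of RNA-seq read counts of young adult worms. The table holds 222 rows whose gene name begins with *fbxa-*, among 45836 rows in all, and 209 of them had at least 1 count. A gene was taken as a member when it reached 1 CPM (counts scaled to the library total) in at least 3 of the 12 libraries. This left 111 members, of which 87 are protein-coding genes and 24 are annotated pseudogenes. Just inside this limit stood *fbxa-99*, *fbxa-53* and *fbxa-87*, with third-highest values of 1.31, 1.25 and 1.19 CPM, and just outside it *fbxa-143*, *fbxa-179* and *fbxa-35*, with 0.981, 0.969 and 0.955 CPM. Another 98 genes had a count without becoming members, and 13 had none.

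The libraries came from *eat-2;nhr-62* double mutants, *eat-2(ad465)* mutants, *nhr-62(tm1818)* mutants and wild-type N2 worms, with 3 libraries of each genotype. *eat-2* encodes an acetylcholine receptor subunit of the pharynx, and its mutants pump slowly and eat less, so that they serve as a genetic model of dietary restriction. *nhr-62* encodes a nuclear hormone receptor related to vertebrate HNF4, and the *tm1818* deletion removes its DNA-binding domain but may leave a shorter predicted isoform that has only the ligand-binding domain. The double mutants carry both alleles. All worms were grown at 20 °C on *E. coli* OP50, synchronized by bleaching, and about 300 per genotype were picked on reaching adulthood (adult day 0), before embryos were visible. The question was which genes respond to the *eat-2* mutation and which of these responses need *nhr-62*.

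F-box proteins are the substrate-binding subunits of SCF ubiquitin ligases. In these complexes a cullin scaffold carries a RING protein, which brings in the ubiquitin-loaded enzyme, and a Skp1-related adaptor (SKR in worms), which holds the F-box protein, and the rest of the F-box protein binds the target that is to be tagged for breakdown. The worm genome holds an unusually large and fast-evolving set of F-box genes, many of them in tandem arrays, and few of the *fbxa* genes have a known target. FBXA-75 and FBXA-158 are exceptions in that they are known as substrate adaptors of the CUL-6 ligase, which acts with SKR-3, SKR-4, SKR-5 and the RING protein RCS-1 in the worm's response to intracellular infection and protein stress.

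The mutated genes themselves gave a limited check of the labels. *eat-2* had 0 to 5 counts in the *eat-2;nhr-62* libraries, 1 to 6 in *eat-2*, 11 to 17 in *nhr-62* and 7 to 20 in N2. *nhr-62*, counted over the whole gene and not over the deleted part, had 90.9 to 124 normalized counts in *eat-2;nhr-62*, 132.1 to 168.7 in *eat-2*, 130.3 to 143.5 in *nhr-62* and 123.4 to 189.1 in N2, so that it does not check the deletion.

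The *fbxa* genes together took 0.0656% to 0.0991% of the counts of a library, and the libraries held 18260311 to 44753083 counts. Their summed level was 791 ± 30.1 CPM in *eat-2;nhr-62*, 932.8 ± 51.6 CPM in *eat-2*, 711.9 ± 52.8 CPM in *nhr-62* and 706.8 ± 33.9 CPM in N2 (SD, n = 3 each). Every *eat-2* library was thus above every library of the other genotypes, from 893.3 CPM upwards. These sums, and the marker sums below, are scaled to library totals only. With that scaling the median log2 fold change of all tested genes in *eat-2* against N2 was 0.28. It was 0.06 with the scaling used for the tests, so that part of the higher *eat-2* sum is not particular to the family. Whole animals were sequenced, so that more cells of a type and more RNA per cell cannot be told apart. The marker lists also differed. Sperm markers summed to 340.8–435.7 CPM in *eat-2;nhr-62*, 537.2–658.2 CPM in *eat-2*, 269.4–276 CPM in *nhr-62* and 210–461.8 CPM in N2, and 14 of 40 tested sperm genes were called higher in *eat-2* against N2. Neuron markers summed to 403.6–425.2 CPM in *eat-2;nhr-62* and 467.7–505 CPM in *eat-2* against 302.1–321.9 CPM in N2. Pharynx markers summed to 769.6–944.6 CPM in *eat-2;nhr-62* and 1010–1293 CPM in *eat-2* against 417.6–575 CPM in N2. Intestine markers, by contrast, summed to 38970–51060 CPM in *eat-2;nhr-62* and 25920–30230 CPM in *eat-2* against 52080–56930 CPM in N2. The intestine sum rests on its abundant genes, since of 9 listed genes 2 were called higher and 3 lower, with a median log2 fold change of 0.05. Oocyte and eggshell markers summed to 12350–13200 CPM in *eat-2;nhr-62*, 9539–10440 CPM in *eat-2* and 11160–12770 CPM in N2. All 12 of these genes were lower in *eat-2* against N2 at an edgeR adjusted p under 0.05, and 1 was called. Body muscle markers summed to 7697–8843 CPM in *eat-2* against 5865–7274 CPM in N2. None of these 6 genes was called or had an edgeR adjusted p under 0.05, and their median log2 fold change was 0.2. Germ line and hypodermis sums overlapped between *eat-2* and N2. Of the 8 germ line genes 6 were nevertheless lower in *eat-2* at an edgeR adjusted p under 0.05, with a median log2 fold change of -0.21, and none was called. Of the 6 hypodermis genes 1 was called higher. Apart from 5 sperm genes and 1 hypodermis gene, no listed marker was at 0 in any library. The part of these differences in the *fbxa* results was tested only for sperm transcripts, by a fit with a spermatogenesis score (the mean log2 level of the major sperm protein genes), which is given beside the results.

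One gene led the family. *fbxa-215*, on chromosome IV, had 139 CPM per kilobase of exon, against a median of 2.41 over the 111 members. It took 17.3% to 20.4% of the *fbxa* reads in *eat-2* and 25.2% to 27.2% in N2. Without it the *fbxa* sum was 602.3 ± 22.4 CPM in *eat-2;nhr-62*, 753.4 ± 35.5 CPM in *eat-2*, 513 ± 39.6 CPM in *nhr-62* and 523.9 ± 19.8 CPM in N2 (SD, n = 3 each). This sum too is scaled to library totals only. The mean normalized counts of the members had a median of 85.9 and ran from 20 to 5409.4, and 5 members exceeded 500.

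None of the 6 members with the highest mean counts passed the fold limit in *eat-2* against N2. In normalized counts, which are counts scaled by the TMM (trimmed mean of M-values) method to the mean library size, *fbxa-215* stood at 5080, 5409.1 and 5536.5 in *eat-2;nhr-62*, 4104.1, 4992.8 and 4923.2 in *eat-2*, 5896.1, 6212.2 and 6137.8 in *nhr-62*, and 5160.4, 5953.5 and 5507.5 in N2. All 3 *eat-2* libraries lay below the N2 libraries, by a log2 fold change of -0.25 (standard error 0.08, edgeR adjusted p = 0.0243), which is short of the 1.5-fold limit used here. *fbxa-101* had 990.6, 999.8 and 976.6 normalized counts in *eat-2;nhr-62*, 1001.2, 985 and 1086.1 in *eat-2*, 1122.5, 1154.3 and 1281.7 in *nhr-62* and 1131.7, 1146.7 and 1333.1 in N2. *fbxa-206* had 796.2, 836.5 and 754.5 in *eat-2;nhr-62*, 713.1, 678.7 and 812.1 in *eat-2*, 895.9, 949.4 and 918.8 in *nhr-62* and 829.1, 905.2 and 926.2 in N2. In both genes the *eat-2* libraries lay below the N2 libraries, by log2 fold changes of -0.24 and -0.28. *fbxa-72* had 1443.6, 1273.2 and 1413 normalized counts in *eat-2;nhr-62*, 659.8, 1258.3 and 1121.9 in *eat-2*, 1516.1, 1400.8 and 1593.4 in *nhr-62* and 1341.9, 1356.3 and 1299.5 in N2. Replicate 1 of *eat-2* was far below the other libraries of this gene, and the log2 fold change was -0.40 (edgeR adjusted p = 0.074). Without *eat-2* replicate 2 it was called lower, at -0.59 (edgeR adjusted p = 0.0193). *fbxa-210* had 1404.4, 1317.2 and 1379.3 normalized counts in *eat-2;nhr-62*, 1339, 1445 and 1346.5 in *eat-2*, 1578, 1472.1 and 1466.2 in *nhr-62* and 1342.9, 1525.5 and 1556 in N2, and *fbxa-114* had 490.6, 473.3 and 483.5, 512.1, 562.7 and 476.4, 468.4, 474.2 and 477.6 and 489.7, 439.7 and 488 in the same order of genotypes. The *eat-2* and N2 libraries of these 2 genes overlapped. The direction of *fbxa-210* turned with the scaling (log2 fold change 0.12 with libraries scaled by total counts).

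The first comparison asked how the family responds to the *eat-2* mutation. Of the 111 members, 52 rose and 3 fell in *eat-2* against N2, where a member was called when its edgeR adjusted p (Benjamini-Hochberg over 15344 tested genes) was under 0.05, its fold exceeded 1.5 and its normalized counts averaged more than 10. Over all tested genes, 23.8% were called higher and 3.55% lower. The median log2 fold change was 0.57 over the members and 0.06 over all tested genes, and 87 of the 111 members had a positive one. The filter that chose the members admits genes through a single high genotype. Of the 16 members under 1 CPM in every N2 library, 14 were called higher, and 3 members (*fbxa-87*, *fbxa-183* and *fbxa-201*) reached 1 CPM only in *eat-2*, so that a high value there was needed for them to be members. Among the 101 genes with a mean over 12 libraries of at least 1 CPM, 43 were called higher and 3 lower, with a median of 0.49. Among the 77 members at 1 CPM in all 12 libraries, which leaves out genes that are near 0 in N2, 26 were called higher and 1 lower. Protein-coding members were called higher in 45 of 87 cases and pseudogenes in 7 of 24.

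**Figure D1:**
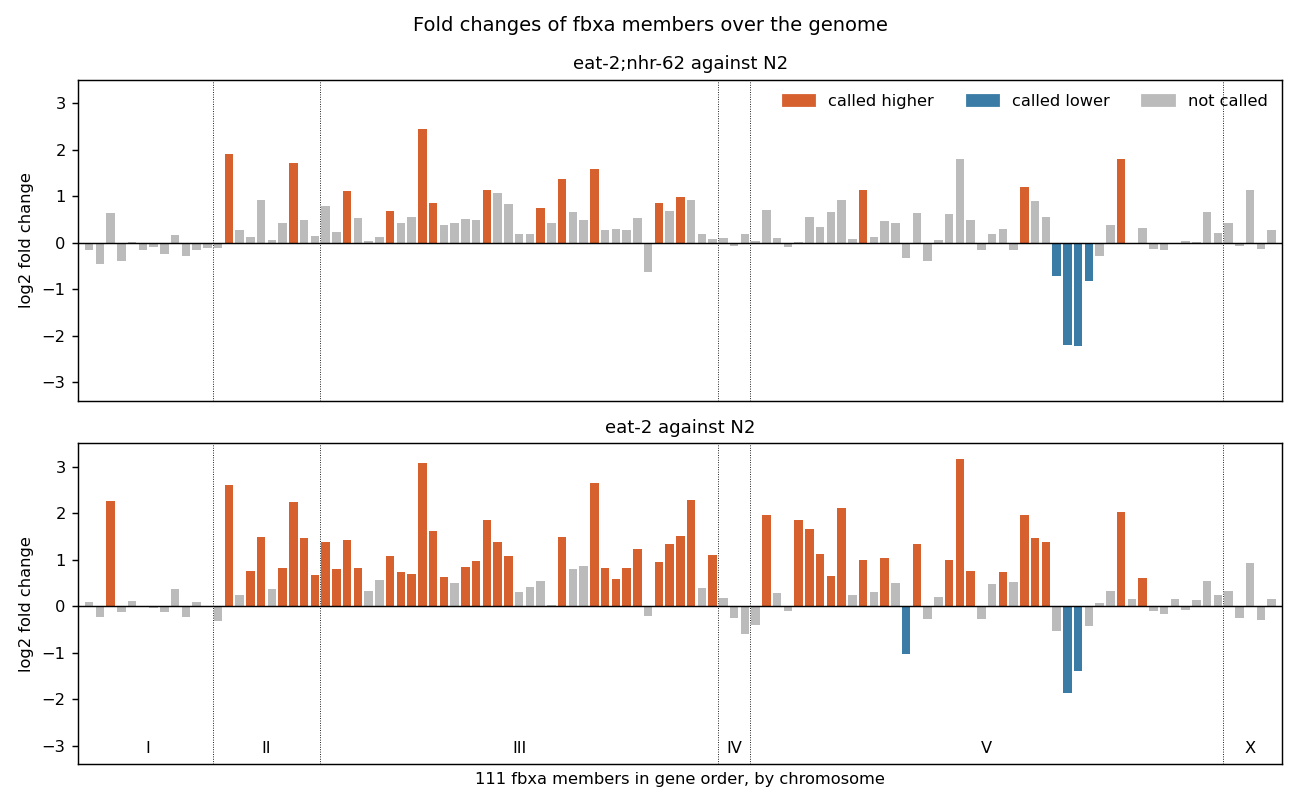
Log2 fold change against N2 (vertical axis) of each of the 111 *fbxa* members in gene order along the chromosomes (horizontal axis), in *eat-2;nhr-62* (upper panel) and *eat-2* (lower panel), where a bar is 1 gene and its colour shows the call. In *eat-2;nhr-62* 15 members are called higher and 4 lower and in *eat-2* 52 and 3, and most of the lower calls on chromosome V sit side by side.

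Among the 52 that rose, the median log2 fold change was 1.28 and the range 0.59 to 3.17, and 32 exceeded 2-fold and 9 exceeded 4-fold. In each of the 52, all 3 *eat-2* libraries were above all 3 N2 libraries. The call was made on these same libraries and favours such a separation, which therefore adds no support. The same holds wherever called genes are said below not to overlap. Calls run at 23.8% of all tested genes in this direction, and the overlap of their libraries was not counted. The gene with the smallest p was *fbxa-125*, the only 1 of 12 members on chromosome I to be called. It showed 163.4, 144.2 and 128.4 normalized counts in *eat-2*, against 30.5, 25.8 and 33.5 in N2, a log2 fold change of 2.27 (standard error 0.21, edgeR adjusted p = 2.31e-05). *fbxa-21*, an annotated pseudogene on chromosome III, had 376.5, 304.5 and 246.8 normalized counts in *eat-2*, against 38.9, 38.2 and 31.4 in N2, a log2 fold change of 3.08 (standard error 0.35, edgeR adjusted p = 9.60e-05). Its *eat-2* libraries spread over a wider range than its N2 libraries and were still far from them.

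*fbxa-74* showed a small and even change, with 573.8, 642.8 and 570.2 normalized counts in *eat-2* against 321.5, 343.7 and 336.5 in N2 (log2 fold change 0.83, standard error 0.10). *fbxa-188* on chromosome V had 81.1, 86.7 and 87.6 normalized counts in *eat-2* against 20, 19.6 and 26 in N2. The 3 *eat-2* values were within a few counts of each other, and the log2 fold change was 1.95. *fbxa-61* had 147.7, 249.8 and 223.4 normalized counts in *eat-2* against 80.9, 60.9 and 60.6 in N2, so that its lowest *eat-2* library, replicate 1, was nearest to N2. *fbxa-202* had 253, 222.4 and 232 normalized counts in *eat-2* against 100.9, 46.4 and 77.9 in N2. Here the N2 libraries spread the most, with replicate 2 lowest. *fbxa-138* had 71.4, 51.8 and 38.3 normalized counts in *eat-2* against 11.6, 9.3 and 4.3 in N2, and *fbxa-14* had 147.7, 129.1 and 127.1 in *eat-2* against 46.2, 46.4 and 50.9 in N2. These 8 genes had the smallest edgeR p among those that rose, and their adjusted p were 3.53e-04 or less. The largest log2 fold change, 3.17, belonged to *fbxa-87*, a pseudogene that is a member only through its *eat-2* libraries, with 71.4, 30.2 and 35.8 normalized counts in *eat-2* and 7.4, 6.2 and 1.1 in N2.

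The 3 members that fell in *eat-2* are all on chromosome V. *fbxa-192* and *fbxa-193* are neighbours and are described with their run. *fbxa-153* is the only expressed member of a run of 4 *fbxa* genes and had 64.2, 72.6 and 55.5 normalized counts in *eat-2* against 125, 136.2 and 128.8 in N2, a log2 fold change of -1.02 (standard error 0.17, edgeR adjusted p = 7.63e-04).

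The calls were spread unevenly over the chromosomes. On chromosome III 26 of 37 members rose and none fell, on chromosome II 7 of 10 rose, and on chromosome V 18 of 44 rose and 3 fell. On chromosomes I, IV and X together 1 of 20 members rose, and it was *fbxa-125*. Over all tested genes, by contrast, 19% on chromosome III were called higher, 24.3% on II, 29.5% on V, 21.7% on I, 26.4% on IV and 20.3% on X. The median log2 fold change of the members was 0.85 on chromosome III, 0.79 on II, 0.41 on V, 0 on I, -0.25 on IV and 0.16 on X. These shares are descriptions, and the difference between chromosomes was not tested.

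With the spermatogenesis score in the model, 24 of the 52 remained called higher in *eat-2* against N2, and the share of all tested genes called higher was 8%. Their direction held in all 52, with log2 fold changes of 0.28 to 3.09 and a median of 1.08. The score ran from 0.43 to 0.60 in the *eat-2* libraries and from -0.63 to 0.23 in the N2 libraries. It therefore separates these genotypes completely, and the genotype and the score cannot be told apart by this fit. With a test against a 1.5-fold change in place of a fold limit, 28 members were called higher and 3 lower, with 10.8% of all tested genes called higher.

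The double mutants had an intermediate pattern. In *eat-2;nhr-62* against N2, 15 of 111 members rose and 4 fell, with 5.15% of all tested genes called higher and 1.36% lower. The median log2 fold change was 0.28 over the members and 0.02 over all genes. Among the 77 members at 1 CPM in all 12 libraries, 6 (7.79%) were called higher. The count rested on single libraries, since 8 members were called without N2 replicate 3 (5 of them higher) and 9 without *eat-2;nhr-62* replicate 1 (6 of them higher). *fbxa-21* led again, with 271.2, 144 and 185.5 normalized counts in *eat-2;nhr-62*, against 38.9, 38.2 and 31.4 in N2 (log2 fold change 2.44, standard error 0.34, edgeR adjusted p = 0.00111). *fbxa-14* had 133.2, 146.8 and 93.2 normalized counts in *eat-2;nhr-62* against 46.2, 46.4 and 50.9 in N2, and *fbxa-59* had 139.5, 214.6 and 158.6 against 79.9, 82.6 and 73.6. *fbxa-188* had 42.3, 41.3 and 68.2 normalized counts in *eat-2;nhr-62* against 20, 19.6 and 26 in N2. None of these 4 genes had overlapping libraries, and their log2 fold changes were 2.44, 1.36, 1.11 and 1.20.

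**Figure D2:**
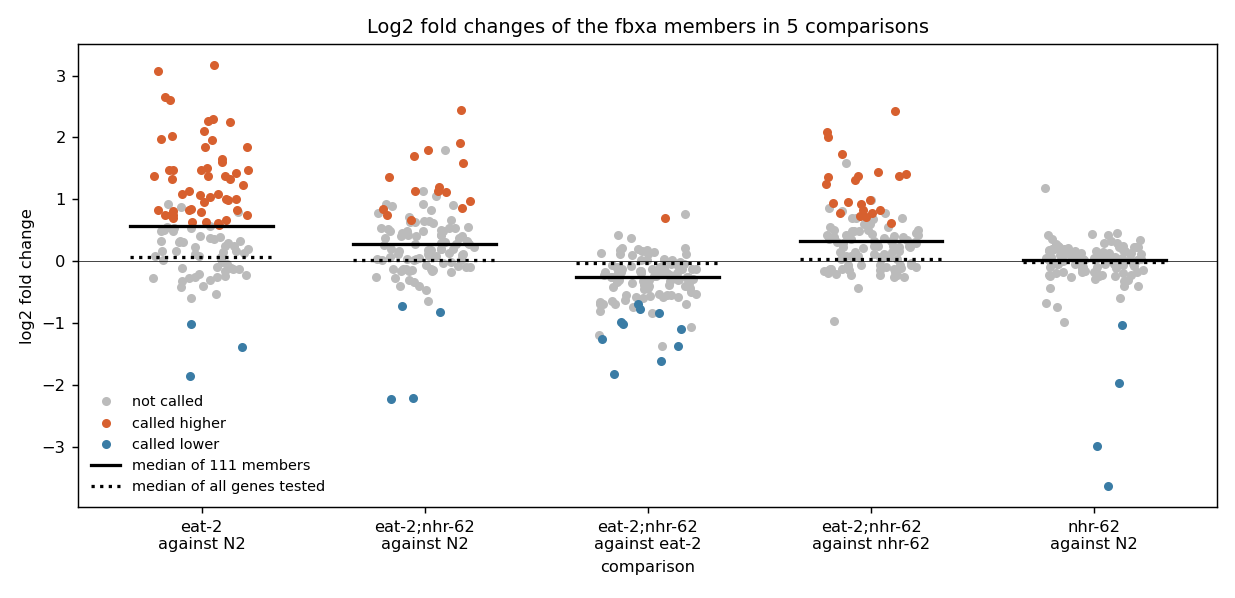
Log2 fold change (vertical axis) of the 111 *fbxa* members in 5 comparisons (horizontal axis), where a point is 1 gene, the solid line the median of the members and the dotted line the median of all tested genes. The members' median is 0.57 in *eat-2* against N2 and 0.28 in *eat-2;nhr-62* against N2, and near 0 in *nhr-62* against N2.

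The 52 members that rose in *eat-2* all had positive log2 fold changes in *eat-2;nhr-62* against N2, from 0.01 to 2.44 with a median of 0.64, and in 50 of them (96.2%) this was smaller than in *eat-2*. Among all 3659 genes called higher in *eat-2* the share was 95.4%, so that it is not particular to the members. The genes were chosen for a high *eat-2* value, and both comparisons share the N2 libraries. Of the 52, 14 were also called higher in *eat-2;nhr-62* against N2, and 9 were called lower in the double mutants than in *eat-2*. *fbxa-61* was in both sets, with 116, 109.2 and 141.3 normalized counts in *eat-2;nhr-62*, between its *eat-2* and its N2 values. The shares of all 3659 genes in such sets were not counted, so that the 14 and the 9 cannot be called particular to the members.

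The direct comparison of the double mutants with *eat-2* asked which of these levels depend on *nhr-62*. Relative to *eat-2*, 10 members fell and 1 rose in the double mutants, with 4.72% of all tested genes called lower and 0.749% higher. The median log2 fold change was -0.26 over the members and -0.03 over all genes, and 21 of the 111 had a positive one. Among the 77 members at 1 CPM in all 12 libraries, 4 (5.19%) were called lower, near the share of all genes. *fbxa-125* had 53.3, 35.8 and 53.8 normalized counts in *eat-2;nhr-62*, against 163.4, 144.2 and 128.4 in *eat-2* (log2 fold change -1.62, standard error 0.20, edgeR adjusted p = 0.00148). *fbxa-202* had 120.7, 103.6 and 107.7 normalized counts in *eat-2;nhr-62* against 253, 222.4 and 232 in *eat-2*, and its highest double mutant library was well under its lowest *eat-2* library. *fbxa-183* had 17.2, 5.5 and 20.2 against 55.7, 36.8 and 58, and *fbxa-218* had 56.4, 36.7 and 65.4 against 113.8, 109.3 and 95. Their log2 fold changes were -1.10, -1.83 and -1.02, and the libraries of the genotypes did not overlap in any of these genes.

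*fbxa-155* had 69, 44 and 61.5 normalized counts in *eat-2;nhr-62* against 193.7, 136.7 and 116 in *eat-2*, and *fbxa-224* had 54.9, 47.7 and 56.7 against 109, 121.6 and 83.9. *fbxa-201* had 20.4, 15.6 and 26.9 normalized counts in *eat-2;nhr-62* against 60.5, 39.6 and 50.6 in *eat-2*. In none of these 3 did the genotypes overlap, but *fbxa-201*, like *fbxa-183*, is a member only because its *eat-2* libraries were high, which favours a lower value in the double mutants. *fbxa-61* and *fbxa-69* fell by 0.77 and 0.69 on the log2 scale. The tenth, *fbxa-193*, was the only 1 of the 10 that had not risen in *eat-2*. *fbxa-153* moved the other way, with 86.2, 124.7 and 100 normalized counts in *eat-2;nhr-62* against 64.2, 72.6 and 55.5 in *eat-2* (log2 fold change 0.69, standard error 0.17, edgeR adjusted p = 0.0315). It was lowest in *eat-2* of all 4 genotypes.

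These calls depended on single libraries. Without *eat-2;nhr-62* replicate 2 only 1 member was called, without *eat-2* replicate 2 there were 4, without *eat-2;nhr-62* replicate 3 there were 6 and without N2 replicate 3 there were 7. With the score in the model none of the 10 was called lower by edgeR, and their median log2 fold change was -0.72 in place of -1.06, but of all tested genes only 10 were still called lower, against 724 without the score. The score ran from -0.20 to 0.07 in *eat-2;nhr-62* and from 0.43 to 0.60 in *eat-2*, so that here too the genotype and the score cannot be told apart.

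**Figure D3:**
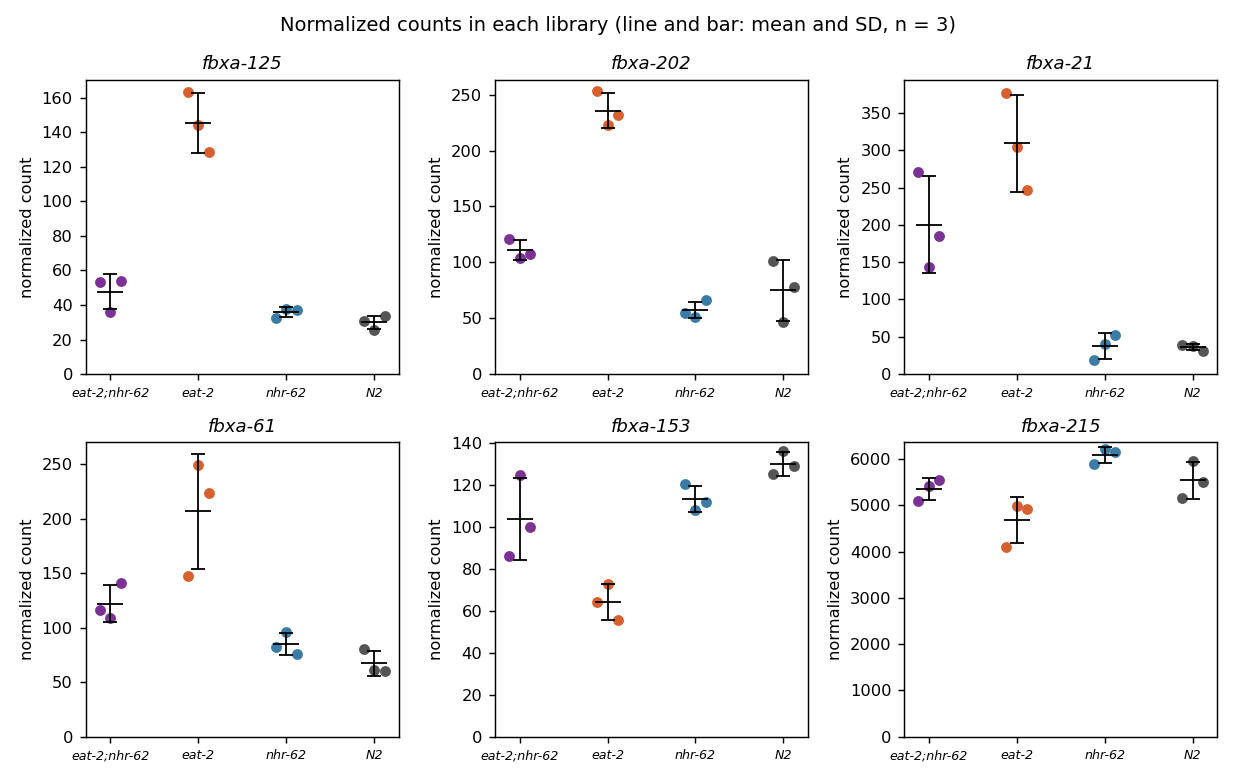
Normalized counts (vertical axes, each from 0) of 6 *fbxa* members in each of 12 libraries, grouped by genotype (horizontal axes), where points are libraries and the line and bar are the mean and SD of 3. *fbxa-125* and *fbxa-202* are highest in the *eat-2* libraries, *fbxa-21* is high in both *eat-2* genotypes, *fbxa-153* is lowest in *eat-2*, and *fbxa-215* differs little.

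Set against *nhr-62* single mutants, which isolates the *eat-2* mutation in worms that lack normal *nhr-62*, the double mutants had 22 of 111 members higher and none lower, with 9.25% of all tested genes called higher and 1.39% lower. By edgeR 41 of 111 members had an unadjusted p under 0.05 here, about the share of all tested genes (5519 of 15344). DESeq2 also called no member lower. The number called higher was 9 to 12 when *eat-2;nhr-62* replicate 1 or 3 or *nhr-62* replicate 1 or 2 was left out (10 without *nhr-62* replicate 1, where 1 was also lower). The median log2 fold change was 0.33 over the members and 0.03 over all genes. Of the 77 members at 1 CPM in every library, 9 (11.7%) were called higher. *fbxa-21* had 271.2, 144 and 185.5 normalized counts in *eat-2;nhr-62* against 18.7, 40.6 and 52.7 in *nhr-62*, and *fbxa-188* had 42.3, 41.3 and 68.2 against 15.1, 23.8 and 20.9. The libraries did not overlap in either gene. *fbxa-193* and *fbxa-191*, the other 2 with the smallest p, belong to the run on chromosome V.

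In *nhr-62* alone the family was close to N2. The median log2 fold change of the members was 0.02, against -0.01 over all tested genes. No member was called higher, where 0.013% of all tested genes were, and 4 fell, where 0.0912% of all tested genes did. By edgeR 6 of 111 members had an unadjusted p under 0.05, as had 477 of 15344 tested genes. DESeq2 called no member higher and 5 lower. These 4 were among only 14 genes of any kind that fell in *nhr-62*, and they are neighbours on chromosome V.

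The run holds *fbxa-191*, *fbxa-192*, *fbxa-193*, *fbxa-129* and *fbxa-108* in this order, with no other protein-coding gene between them. *fbxa-192* and *fbxa-108* are protein-coding and the others are annotated pseudogenes. *fbxa-193* had 59.6, 54.1 and 61.5 normalized counts in *eat-2;nhr-62*, 79.9, 129.1 and 101.2 in *eat-2*, 18, 23.8 and 24.8 in *nhr-62*, and 242.7, 279.7 and 291.1 in N2. *fbxa-192* had 47, 38.5 and 44.2 in *eat-2;nhr-62*, 47.2, 59.4 and 56.8 in *eat-2*, 26.6, 25.7 and 24 in *nhr-62*, and 181.8, 201.3 and 211 in N2. In both genes N2 was highest and *nhr-62* lowest, and no mutant library reached an N2 library. *fbxa-191* had 39.2, 30.3 and 47.1 normalized counts in *eat-2;nhr-62*, 50.8, 43.4 and 38.3 in *eat-2*, 18, 17.8 and 14 in *nhr-62*, and 62, 66.1 and 62.8 in N2. *fbxa-129* had 117.6, 117.4 and 90.4 in *eat-2;nhr-62*, 142.9, 148 and 139.5 in *eat-2*, 86.3, 93.1 and 104.7 in *nhr-62*, and 189.1, 186.8 and 196.9 in N2. The pattern was the same with smaller steps, although 1 *fbxa-129* value in *eat-2;nhr-62* lay within the *nhr-62* range.

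Against N2, the log2 fold changes of *fbxa-193* were -2.23 in *eat-2;nhr-62*, -1.39 in *eat-2* and -3.64 in *nhr-62* (standard errors 0.20, 0.19 and 0.21). Those of *fbxa-192* were -2.21, -1.86 and -2.99 in the same order of genotypes. Both genes were called lower in all 3 mutants, as only 7 genes in the whole table were. *fbxa-191* fell by 1.97 and *fbxa-129* by 1.04 on the log2 scale in *nhr-62*, and both also fell in *eat-2;nhr-62*, by 0.73 and 0.83, while in *eat-2* their values of -0.53 and -0.42 were short of the fold limit. *fbxa-108*, at the end of the run, was not called in any of them, with log2 fold changes of -0.28 in *eat-2;nhr-62*, 0.07 in *eat-2* and -0.74 in *nhr-62*. The calls of *fbxa-192* and *fbxa-193* against N2 held under all 21 alternatives, whereas that of *fbxa-191* in *eat-2;nhr-62* held under 5 and that of *fbxa-129* in *nhr-62* under 15. Without *nhr-62* replicate 1, replicate 2 or N2 replicate 3, *fbxa-129* was not called in *nhr-62*.

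**Figure D4:**
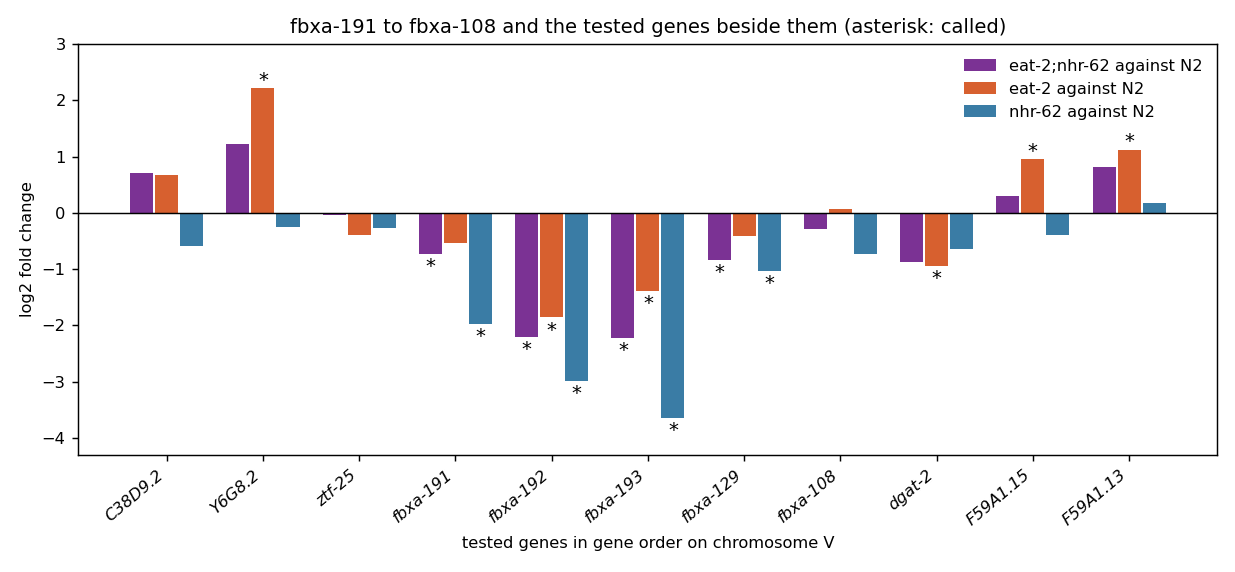
Log2 fold change against N2 (vertical axis) of the 5 *fbxa* genes from *fbxa-191* to *fbxa-108* and of the 6 tested genes within 15 gene models of them on chromosome V (horizontal axis), in *eat-2;nhr-62*, *eat-2* and *nhr-62*, with an asterisk at each call. The deepest bars are those of *fbxa-193* and *fbxa-192*, and none of the 6 other genes is called in *nhr-62*.

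Within 15 gene models on each side there were 28 other genes with a row, of which 6 were expressed enough to be tested. None of the 6 was called in *nhr-62* against N2, where their log2 fold changes ran from -0.65 to 0.17, and none in *eat-2;nhr-62*, while in *eat-2* 3 were called higher and 1 lower. The one called lower was *dgat-2*, directly beside *fbxa-108*, which was chosen after its values were seen. Its log2 fold changes against N2 were -0.87 in *eat-2;nhr-62*, -0.94 in *eat-2* and -0.65 in *nhr-62*. Those of *fbxa-129* were -0.83, -0.42 and -1.04 in the same order, so that both genes were alike only in *eat-2;nhr-62*. Whether reads are shared with near-identical copies, and whether the strains differ from N2 in DNA sequence at this run, was not tested.

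The interaction of both mutations measures by how much the *eat-2* effect in worms without normal *nhr-62* exceeds that in worms with it. It was called for 4 members, 3 of them positive and 1 negative, with 0.117% of all tested genes positive and 0.137% negative. None of the 4 is among the 77 members at 1 CPM in all 12 libraries. The positive members were *fbxa-193* (log2 interaction 2.80, standard error 0.29, edgeR adjusted p = 0.00177), *fbxa-192* (2.64, standard error 0.24) and *fbxa-191* (1.77, standard error 0.31), all of the run on chromosome V. In *eat-2;nhr-62* they stood 1.41, 0.77 and 1.24 log2 units above *nhr-62*, whereas in *eat-2* they stood below N2. The negative member was *fbxa-125* (log2 interaction -1.85, standard error 0.29, edgeR adjusted p = 0.0214). It had 32.4, 37.6 and 37.2 normalized counts in *nhr-62*, close to N2. The interactions of *fbxa-192* and *fbxa-193* were called under all 19 alternatives run, that of *fbxa-125* under 12 and that of *fbxa-191* under 7. Neither *fbxa-125* nor *fbxa-191* was called without N2 replicate 3 or without *nhr-62* replicate 2.

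The 222 genes form 37 runs of 2 or more, in which no more than 2 other protein-coding genes separate one *fbxa* gene from the next, and these runs hold 160 of the genes. Of the 17 runs with at least 2 members, 8 had at least 2 members called in the same direction in at least 1 comparison. In *eat-2* against N2 46.8% of all members were called higher, so that shared calls within a run are to be met without any tie between neighbours. How many runs would reach this with members placed at random was not tested. The largest run, 33 genes on chromosome III, held 16 members, and 9 of these rose in *eat-2*, where 26 of all 37 members on this chromosome did and 23.8% of all tested genes. They were *fbxa-21*, *fbxa-61*, *fbxa-63*, *fbxa-32*, *fbxa-31*, *fbxa-29*, *fbxa-33*, *fbxa-34* and *fbxa-14*. *fbxa-29* had 128.3, 91.4 and 62.9 normalized counts in *eat-2* against 31.5, 22.7 and 23.8 in N2, and *fbxa-31* had 93.2, 135.7 and 106.1 in *eat-2* against 49.4, 67.1 and 53 in N2. *fbxa-33* had 98.1, 71.6 and 67.9 normalized counts in *eat-2* against 14.7, 48.5 and 27.1 in N2, and *fbxa-34* had 35.1, 42.4 and 27.2 in *eat-2* against 17.9, 10.3 and 21.6 in N2. The libraries did not overlap in any of the 9, with log2 fold changes of 0.63 (*fbxa-63*) to 3.08 (*fbxa-21*). In *eat-2;nhr-62* against N2, where 5.15% of all tested genes were called higher, 5 members of this run rose. They were *fbxa-21*, *fbxa-61*, *fbxa-29*, *fbxa-80* and *fbxa-14*.

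A second run on chromosome III, of 12 genes, held 8 members, and 6 rose in *eat-2*, where 23.8% of all tested genes did. *fbxa-60* was the most abundant of them, at 556.3 ± 23.7 normalized counts in *eat-2* against 310.7 ± 31.4 in N2 (SD, n = 3 each), and *fbxa-59* rose the most, by a log2 fold change of 1.42. *fbxa-55*, *fbxa-10*, *fbxa-54* and *fbxa-51* had log2 fold changes of 0.80, 1.08, 0.74 and 0.70. The pairs *fbxa-146* and *fbxa-24* on chromosome II, *fbxa-74* and *fbxa-13* and *fbxa-38* and *fbxa-62* on chromosome III, and *fbxa-188* and *fbxa-189* on chromosome V were each called higher together in *eat-2*, as were 2 of 3 members, *fbxa-42* and *fbxa-39*, of a further run on chromosome III. *fbxa-24* had 320.8, 139.5 and 129.6 normalized counts in *eat-2* against 43.1, 53.7 and 26 in N2, and its neighbour *fbxa-146* had 165.9, 129.1 and 129.6 against 82, 87.7 and 67.1. *fbxa-189* had 164.6, 149.9 and 107.4 in *eat-2* against 38.9, 59.9 and 53 in N2, beside *fbxa-188* given above, and *fbxa-62* had 59.3, 41.5 and 46.9 against 23.1, 16.5 and 22.7. Within the pair on chromosome II the sizes differed, with log2 fold changes of 0.83 for *fbxa-146* and 2.25 for *fbxa-24*.

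Over the 12 libraries, the log2 normalized counts of 43 pairs of next members in a run had a median Pearson correlation of 0.69. It was 0.60 for 135 pairs of the same run that are not next to each other, 0.42 for 1558 pairs of different runs on the same chromosome and 0.22 for 4369 pairs on different chromosomes. These correlations include the differences between genotypes. Of deviations from the genotype means, the medians were 0.19, 0.02, 0.03 and 0.03. Both genes of a pair rose in *eat-2* in 34.9% of next pairs, 30.4% of other pairs in a run, 28.4% of other pairs on a chromosome and 18.9% of pairs on different chromosomes. The pairs share libraries and genes and are a description with no test. Neighbours can be near-identical copies, and the authors limited reads to 1 alignment, which they give as a means to unique mapping. Whether next members shared or lost reads was not tested. In 9 members the exons overlap another gene model (*fbxa-93*, *fbxa-3*, *fbxa-67*, *fbxa-19*, *fbxa-27*, *fbxa-39*, *fbxa-209*, *fbxa-99* and *fbxa-207*), whose reads cannot be told apart from theirs.

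The 2 known CUL-6 adaptors were too rare to be members. *fbxa-158*, on chromosome II, had 5 to 11 counts in a library of *eat-2;nhr-62* and 6 to 12 in *eat-2*, in sum 24 and 28, and its 3 libraries summed to 0 in *nhr-62* and to 1 in N2. It was tested (edgeR adjusted p = 0.00195 in *eat-2* against N2) but missed the limit of 10 normalized counts, and a count of 0 allows up to 3. *fbxa-75* had 2 counts in all, both in *eat-2*.

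Other parts of the ligase were read beside the family. Of 29 tested genes for cullins, Skp1-related adaptors and RING subunits, 5 rose and 3 fell in *eat-2* against N2, with 23.8% of all tested genes called higher. The 5 that rose were *cul-6*, *skr-3*, *skr-4*, *skr-5* and *rcs-1*, all of which are known subunits of the CUL-6 ligase. *cul-6* had 228.1 ± 44.2 normalized counts in *eat-2* against 138.4 ± 8.1 in N2 (SD, n = 3 each), a log2 fold change of 0.72 (standard error 0.18, edgeR adjusted p = 0.00642). *rcs-1*, *skr-3*, *skr-4* and *skr-5* had log2 fold changes of 0.74, 0.63, 0.66 and 1.76. The adaptors that fell were *skr-7*, *skr-8* and *skr-14*, and none of these 3 was called without N2 replicate 2, whereas the 5 that rose still were. The cullin of the common SCF ligase, *cul-1*, stood at a log2 fold change of -0.50 (standard error 0.08), which is short of the fold limit, and its partner *skr-1* had 0.01. None of the 29 was called in *eat-2;nhr-62* against N2 by edgeR. Of them 8 had an unadjusted p under 0.05, about the share of all tested genes (4336 of 15344). There *rcs-1* and *skr-3* had log2 fold changes of 0.5 and 0.47 (edgeR adjusted p = 0.0108 and 0.0172), short only of the fold limit. *cul-6*, *skr-4* and *skr-5* had 0.48, 0.22 and 0.95 (edgeR adjusted p = 0.105, 0.404 and 0.131). None of the 29 was called in the double mutants against *eat-2* either, so that a loss of the rise is not shown.

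Related families are set beside the shares of all tested genes in *eat-2* against N2, 23.8% higher and 3.55% lower. The *fbxb* genes, which carry an F-box with a different second domain, had 2 called higher and 14 lower of 57 tested in *eat-2* against N2, with a median log2 fold change of -1.31. In all 14 that fell, N2 replicate 2 was the highest N2 library, and in 13 the SD of the N2 libraries exceeded 0.5 times their mean. Without that library 2 were called higher and 1 lower of 58, with a median of -0.26. The *fbxc* genes had 5 higher and 8 lower of 31, with a median of -0.21, and 4 higher and 2 lower without that library. Of the *bath*, *math* and *btb* genes, which are also expanded in worms and only in part encode adaptors of the CUL-3 ligases, 28 of 86 (32.6%) rose and none fell, with a median of 0.35. Of the *pals* genes, which respond to intracellular infection or control that response, 15 of 24 (62.5%) rose and none fell, with a median of 1.15, and 9 (37.5%) rose in *eat-2;nhr-62* against N2, where 5.15% of all tested genes did. Of 11 characterised F-box genes with other names, among them *fog-2* and *ftr-1*, 2 (18.2%) rose and none fell. No test between families was made.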

How the data were processed

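Whole-animal RNA of 12 libraries was read as 100 bp single ends. The authors aligned reads with TopHat 1.3 to the WBcel215 genome, with a limit of 1 alignment that they give as a means to unique mapping. They counted reads per gene with HTSeq and deposited the raw counts. The kit used, TruSeq RNA, does not mark strand. The study's methods name 3 biological replicates per genotype, and p-values measure the spread between these. Names came from later annotations (169 *fbxa* names from Ensembl, 53 from RefSeq), which paired 98.5% of rows with a count, so chromosome and gene order are given without coordinates. 1 blank line was left out.

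Counts were scaled by TMM and fitted over all 4 genotypes by edgeR 4.0.16 in R 4.3.3 (quasi-likelihood test), on genes passing edgeR's filter on low counts. The call follows the study's limits: adjusted p under 0.05, fold over 1.5 and mean normalized count over 10. DESeq2 1.42.0 and other settings served as alternatives. The fit was tested on simulated data.

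Values in every library are given for the called members with the smallest p (8 in each direction where *eat-2* is compared with N2 or the double mutants with *eat-2*, 4 elsewhere), for the 6 most abundant members, for *fbxa-75* and *fbxa-158* (as raw counts), and for the run on chromosome V. The rule also covers the other runs, which are given more briefly. *fbxa-87* was chosen after its values were seen. Members, lists and tests were chosen with earlier results of these data known. A planned search of promoter motifs was not made, since no sequences were used here.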

Additional observations from a re-analysis of the deposited data

Results flagged for a closer look

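In 4 members the effect of the *eat-2* mutation differed between worms without and with normal *nhr-62*, by the interaction term of the edgeR fit over 12 libraries. The log2 interaction, which is the *eat-2* effect in *nhr-62* worms minus that in worms with normal *nhr-62*, was 2.80 for *fbxa-193* (adjusted p = 0.00177), 2.64 for *fbxa-192* (adjusted p = 9.60e-04), 1.77 for *fbxa-191* (adjusted p = 0.0361) and -1.85 for *fbxa-125* (adjusted p = 0.0214). The first 3 are neighbours on chromosome V. Over all tested genes 0.117% were called positive and 0.137% negative. The term was called under all 19 alternatives for *fbxa-192* and *fbxa-193*, under 12 for *fbxa-125* and under 7 for *fbxa-191*. With the spermatogenesis score neither *fbxa-125* nor *fbxa-191* was called.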

How the results depend on the processing

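The numbers of members called were 55 in *eat-2* against N2, 19 in *eat-2;nhr-62* against N2, 11 in double mutants against *eat-2*, 22 in *eat-2;nhr-62* against *nhr-62*, 4 in *nhr-62* against N2 and 4 in the interaction. With an edgeR test against a 1.5-fold change the first 4 were 31, 4, 1 and 3. With the spermatogenesis score they were 28 in *eat-2* against N2, 0 in double mutants against *eat-2* (edgeR), 12 in *eat-2;nhr-62* against *nhr-62* and 2 in the interaction. With replicates 2 and 3 only they were 11 in *eat-2;nhr-62* against *nhr-62*, 2 in *nhr-62* against N2 and 2 in the interaction. Scaling by total counts gave 19 in double mutants against *eat-2* and a log2 fold change of 0.12 for *fbxa-210* in *eat-2* against N2. It shifted the median of all genes in *eat-2* against N2 to 0.28 and that of the members to 0.80. Leaving out 1 library at a time gave 49 to 56, 8 to 25, 1 to 16, 9 to 24, 3 to 4 and 2 to 4 in the order above. A replicate block gave 18 in double mutants against *eat-2* and changed no other of these counts by over 1.5 times. Same-numbered libraries correlated at -0.22 to 0.29 and libraries of other numbers at -0.39 to 0.32, but 8 of 12 libraries correlated best with their own number. The main fit did not take the numbers as pairs, and whether same-numbered libraries share a batch was not tested. Over the 74 single values named, 1341 of 1545 alternatives kept direction and call, 1 gained the call, 1 turned and the others lost the call. The causes were not tested. Genes near 1 CPM rest on few counts, and 3 counts equal 0.067 to 0.164 CPM.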
